A study of Arabidopsis thaliana with 48 samples.

Results

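Proline is made from glutamate and broken down to glutamate again, and 8 Arabidopsis thaliana genes for these steps and for carrying proline between cells are described here. They were taken by locus identifier, and all 8 were found among the 32824 gene identifiers of the 2 deposited expression tables. Their messenger RNA was measured by RNA sequencing of whole seedlings in 48 libraries, 3 for each of 16 groups. The groups were 8 treatments of a bHLH35 mutant and the same 8 treatments of the wild type Col-0, where bHLH35 encodes a transcription factor of the basic helix-loop-helix family.

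All seedlings were 7 days old and stood on half-strength Murashige and Skoog medium. Salt (S) was 50 mM in the medium from germination on. High light (HL) was 700 µE and heat (HS) was 33 °C, and each lasted 1.5 h. The combinations were S+HL, S+HS, HL+HS and S+HL+HS. Control seedlings had no salt, 150 µE and 21 °C, which were also the settings of every treatment without the stress concerned. The labels name the mutant by its gene only, and the allele and the number of lines are not given in the sources used here.

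Proline accumulates in many plants under drought, salt and cold, and it serves there as a compatible solute and as a store of carbon, nitrogen and reducing power. P5C synthetase (P5CS1, AT2G39800, and P5CS2, AT3G55610) turns glutamate into pyrroline-5-carboxylate, which P5C reductase (P5CR, AT5G14800) turns into proline. In mitochondria, proline dehydrogenase (PDH1, AT3G30775, also called ERD5, and PRODH2, AT5G38710) and P5C dehydrogenase (P5CDH, AT5G62530) run the path back to glutamate. P5CS1 is known as the copy of the first enzyme that responds to salt and abscisic acid, and PDH1 is known to be switched on by proline and on relief from drought. PROT1 (AT2G39890) and PROT2 (AT3G55740) are plasma membrane carriers of proline and related compatible solutes.

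Promoter sequence is shown for 3 of the genes, because P5CS1 and PDH1 had the widest ranges of level in these libraries and P5CDH shares a promoter element with PDH1. Each line gives the 250 bases before the gene's start in the RefSeq annotation of TAIR10.1, read 5′ to 3′ on the gene's strand. Capitals mark ACTCAT on either strand, known as the proline- and hypoosmolarity-responsive element of PDH1. The windows are chr3:12451557-12451806 (minus strand) for PDH1, chr5:25103313-25103562 (minus strand) for P5CDH and chr2:16603320-16603569 (minus strand) for P5CS1.
PDH1: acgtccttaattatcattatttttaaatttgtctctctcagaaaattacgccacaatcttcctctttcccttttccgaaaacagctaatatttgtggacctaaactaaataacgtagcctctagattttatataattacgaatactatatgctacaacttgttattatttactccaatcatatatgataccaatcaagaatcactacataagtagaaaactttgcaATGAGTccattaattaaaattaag
P5CDH: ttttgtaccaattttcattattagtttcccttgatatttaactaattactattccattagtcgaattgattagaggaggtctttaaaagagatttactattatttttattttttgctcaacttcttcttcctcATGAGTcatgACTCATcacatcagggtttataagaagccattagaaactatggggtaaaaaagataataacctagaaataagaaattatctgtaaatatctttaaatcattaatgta
P5CS1: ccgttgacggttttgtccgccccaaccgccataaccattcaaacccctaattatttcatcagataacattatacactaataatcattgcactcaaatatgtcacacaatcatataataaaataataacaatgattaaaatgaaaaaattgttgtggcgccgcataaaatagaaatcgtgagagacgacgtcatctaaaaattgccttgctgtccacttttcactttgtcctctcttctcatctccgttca

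Of the 8 windows, 2 held ACTCAT on either strand, those of PDH1 with 1 match and P5CDH with 2, against 12.3% of 27443 promoters of this length. ACGTG, the core of the abscisic acid responsive element, was found once each in P5CR and PROT1, against 22.9% of all promoters. CACGTG, the G-box, contains ACGTG and was found in none of the 8, against 6.49% of all promoters. A missing match says only that these letters do not stand in the window. P5CS1 and PROT1 lie on chromosome 2 with 11 protein-coding genes between them, and P5CS2 and PROT2 lie on chromosome 3 with 16 between them. The coding sequences of P5CS1 and P5CS2 were 86.1% identical, those of PDH1 and PRODH2 76.5% and those of PROT1 and PROT2 81.7%. PROT3, another carrier of the family and one of the linked genes below, was 90.01% identical to PROT1 and 80.4% to PROT2, and averaged 3.299 ± 1.401 FPKM in mutant Control and 3.64 ± 1.44 FPKM in Col-0 Control (SD, n = 3 each). How reads shared by such pairs were counted is not given in the sources used here. The level of each gene in these pairs is therefore uncertain by what its partner shares with it.

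Levels are FPKM, which are fragments per kilobase of transcript scaled to the depth of the library. That depth, recovered from the spacing of low values, was 19.3 to 43.1 M fragments. AT5G57150 (bHLH35) itself averaged 4.62 ± 1.23 FPKM in mutant Control and 23.5 ± 3.66 FPKM in Col-0 Control (SD, n = 3 each), and its mean was lower in the mutant in all 8 treatments. The heat shock chaperone HSP101 averaged 187 ± 118 FPKM in mutant HS against 5.705 ± 0.764 FPKM in mutant Control, and 207 ± 88.3 FPKM in Col-0 HS against 6.57 ± 1.06 FPKM in Col-0 Control (SD, n = 3 each). HSP101 was also raised in high light without heat, where it averaged 84.6 ± 56.97 FPKM in mutant HL and 69.3 ± 52.5 FPKM in Col-0 HL (SD, n = 3 each). Markers of shoot summed to 28793 to 44718 FPKM and markers of root to 753 to 4293 FPKM over all libraries. Markers of seed had a summed median of 0.6003 FPKM, and their highest sum, 56.3 FPKM, was in a Col-0 Control library. The part of seed markers in the Col-0 changes against Control was not tested. In bulk seedlings fewer cells of a type and less RNA per cell cannot be told apart. The labels do not say whether replicates came from separate cultures, so p-values measure the spread between these libraries, which may be technical.

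Stress was compared with Control within each genotype by limma on log2(FPKM + 1). Changes below are on that scale, which understates those of low genes such as PRODH2. Calls were made at an adjusted p under 0.05, two-sided and by Benjamini-Hochberg over all genes tested. All 8 genes passed the filter on low values, which asked for 3 or more libraries with an FPKM of 1 or more. In the mutant the members called, with the share called of all genes tested, were 5 in S (26.6%), 5 in S+HL (38%), 6 in S+HS (44.4%), 4 in S+HL+HS (44.3%), 3 in HL (17.4%), 4 in HL+HS (35.4%) and 4 in HS (28.9%). For Col-0 the counts were 4 in S (18.7%), 4 in S+HL (36%), 5 in S+HS (44.9%), 4 in S+HL+HS (39.9%), 1 in HL (17.7%), 3 in HL+HS (31.3%) and 5 in HS (30.8%). Nothing is called particular to the 8 genes from these counts. Their median log2 change lay between -0.44 and 0.38 over the mutant stresses and between -0.57 and 0.33 over the Col-0 stresses. The median of all genes lay between -0.15 and 0.14 in the mutant and between -0.09 and 0.10 in Col-0. The 7 comparisons of a genotype share its 3 Control libraries and are not independent of each other.

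**Figure D1:**
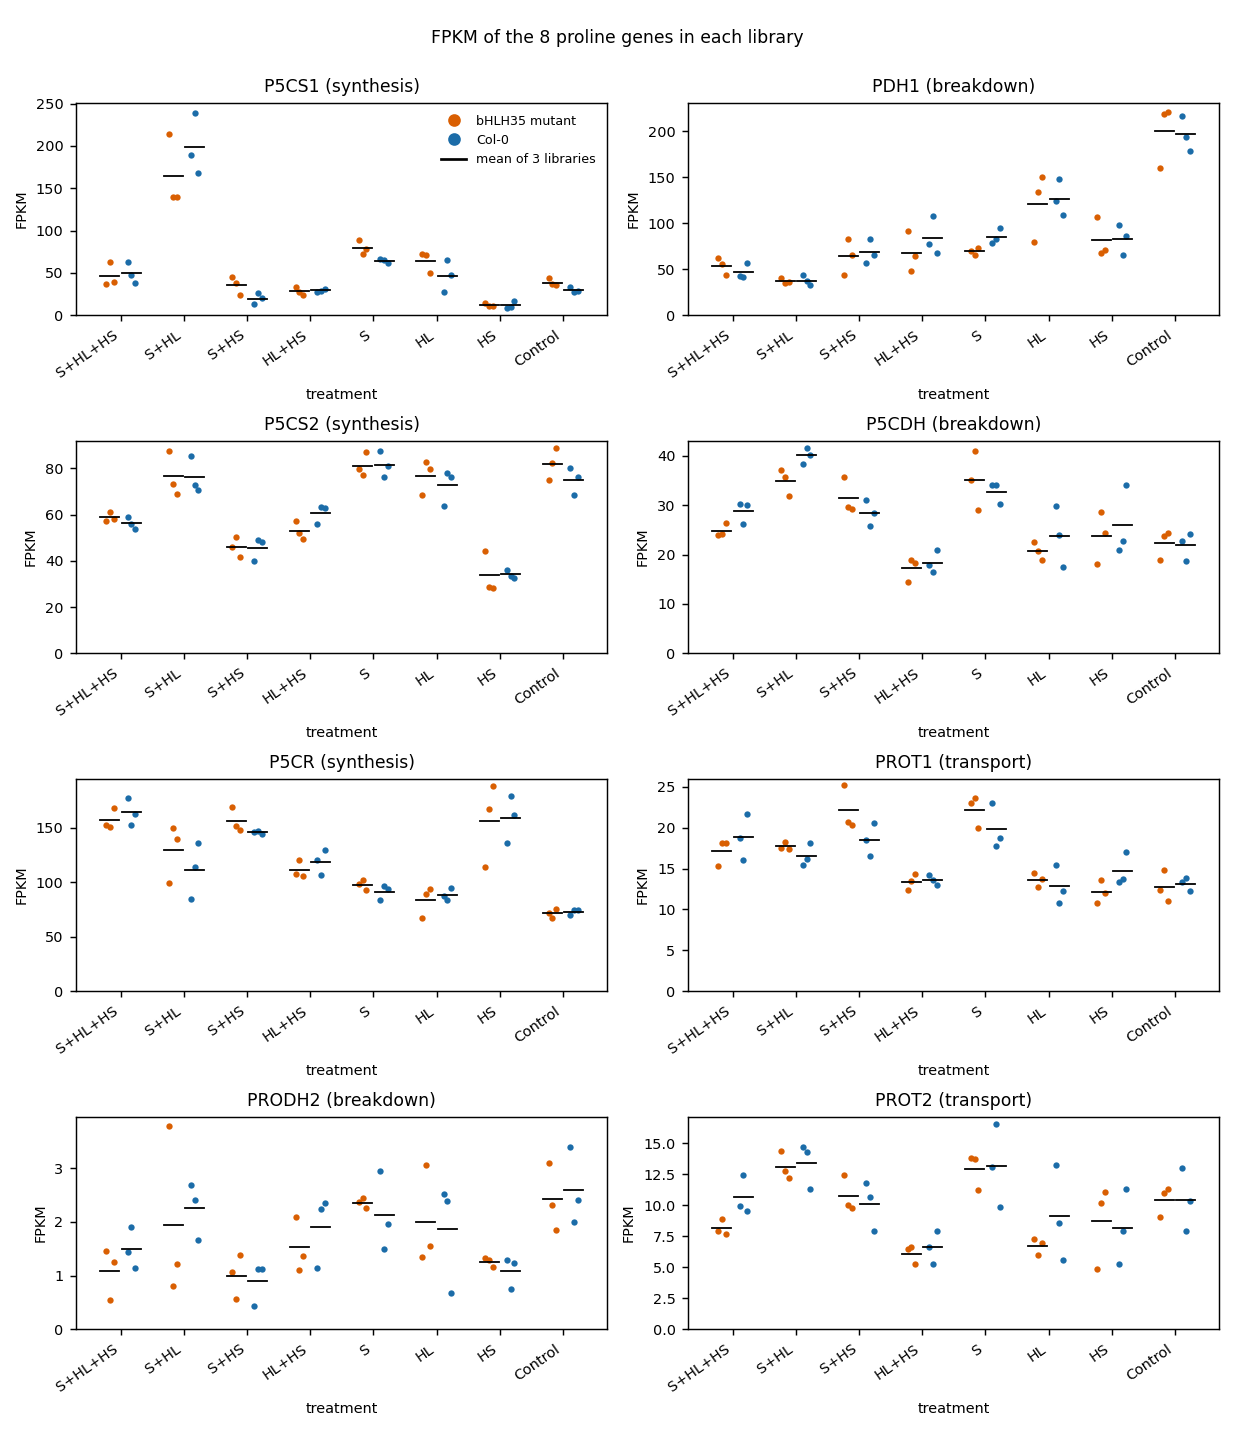
FPKM of each gene (vertical axes, from 0) in each library, by treatment (horizontal axes), with bHLH35 mutant libraries left of Col-0 libraries and bars at the mean of 3 libraries. P5CS1 stood highest and PDH1 lowest in S+HL in both genotypes.

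P5CS1, the stress-responsive copy of the first enzyme of synthesis, had the widest range of the 8 genes. In S+HL it stood at 214, 139.8 and 139.7 FPKM in the mutant, against 43.7, 36.8 and 35.4 FPKM in mutant Control. In Col-0 it stood at 189, 239 and 168 FPKM in S+HL, against 32.8, 27.7 and 29.01 FPKM in Control. Every S+HL library lay far above every Control library of its genotype. The mean was 4.25 times that of Control in the mutant and 6.67 times in Col-0. The log2 change was 2.04 in the mutant (limma adjusted p 1.1e-06, SE 0.23) and 2.68 in Col-0 (limma adjusted p 3.6e-07, SE 0.27).

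In salt alone P5CS1 rose less. It had 89.4, 71.8 and 77.9 FPKM in mutant S and 66.7, 65.1 and 61.6 FPKM in Col-0 S, with no overlap with the Control values above. Log2 changes were 1.03 in the mutant (limma adjusted p 0.0023, SE 0.23) and 1.09 in Col-0 (limma adjusted p 0.00802, SE 0.27). Of 5 root markers, 5 had a higher mean than in Control in each of S, S+HL and S+HS in the mutant, and 4 in each of HL, HS, HL+HS and S+HL+HS. In Col-0 all 5 did in HL and in the 4 treatments with salt, and 4 did in HS and in HL+HS. Their summed FPKM ran from 2649 to 3758 in mutant S against 1285 to 1487 in mutant Control, and from 2763 to 4293 in Col-0 S against 1692 to 2057 in Col-0 Control. Without salt it ran from 1313 to 1341 in mutant HL and 1037 to 1505 in mutant HS, and from 1949 to 2922 in Col-0 HL and 1521 to 1724 in Col-0 HS, which overlapped with Control. In HL+HS it ran from 753 to 1124 in the mutant and from 1277 to 1607 in Col-0, below Control without overlap. PYK10 made up most of the sum, with a median of 1652 FPKM beside a summed median of 1730 FPKM over all libraries. None of the 5 was at 0 in any library, and COBL9 was below 1 FPKM in 7 libraries. The part of root markers in the changes of P5CS1 and of the genes below was not tested.

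In heat alone P5CS1 fell. It had 13.9, 10.95 and 11.5 FPKM in mutant HS and 9.01, 9.51 and 16.9 FPKM in Col-0 HS, all below every Control library. The mean was 31.3% of Control in the mutant, with a log2 change of -1.60 (limma adjusted p 2.9e-05, SE 0.23). It was 39.6% of Control in Col-0, with a log2 change of -1.32 (limma adjusted p 0.000998, SE 0.27).

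Shoot markers were lower in several treatments. Of the 5, 0 had a higher mean than in Control in mutant HS, S+HS or S+HL and 0 in these treatments of Col-0. In S, HL, HL+HS and S+HL+HS the numbers were 1, 2, 3 and 1 in the mutant and 1, 2, 2 and 0 in Col-0. Their summed FPKM ran from 33589 to 38354 in mutant HS and 31261 to 36622 in mutant S+HL, against 42604 to 44718 in mutant Control. It ran from 32242 to 35669 in Col-0 HS and 32267 to 32616 in Col-0 S+HL, against 38865 to 43375 in Col-0 Control, with no overlap with Control in either genotype. In HL it ran from 34255 to 39766 in the mutant and 34203 to 34833 in Col-0. In HL+HS it ran from 36547 to 40613 in the mutant and 32150 to 37066 in Col-0. The sum also lay below Control without overlap in S+HS and S+HL+HS of both genotypes and in mutant S. Only in Col-0 S did it overlap with Control. None of the 5 was at 0 in any library. The part of shoot markers in the changes of P5CS1 and of the genes below was not tested.

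High light alone gave unequal P5CS1 libraries. Those of mutant HL had 72.1, 70.7 and 50.2 FPKM, all above mutant Control. Those of Col-0 HL had 27.5, 65.5 and 47.4 FPKM, the first of them below every Control library. The log2 change of 0.71 in the mutant was called (limma adjusted p 0.038, SE 0.23), but the call was lost without any filter on low values (adjusted p 0.057). It was also lost without mutant Control replicate 1 (0.80, adjusted p 0.051), 2 (0.68, adjusted p 0.0998) or 3 (0.65, adjusted p 0.11) and without mutant HL replicate 1 (0.62, adjusted p 0.099) or 2 (0.63, adjusted p 0.13). In Col-0 the log2 change of 0.55 did not pass (limma adjusted p 0.18, SE 0.27), and without Col-0 HL replicate 1 it passed (0.88, adjusted p 0.026).

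In the 3 combinations with heat P5CS1 did not pass the test against Control in either genotype. Its S+HL+HS libraries had 36.6, 62.9 and 39.1 FPKM in the mutant and 62.9, 47.6 and 37.7 FPKM in Col-0. The Col-0 log2 change of 0.68 in S+HL+HS missed the threshold (limma adjusted p 0.053, SE 0.27). It was called without Col-0 S+HL+HS replicate 3 (0.86, adjusted p 0.035), among genes of a mean FPKM of at least 5 (adjusted p 0.047) and in a fit of only the 2 groups (adjusted p 0.013). In S+HS the mutant had 45.7, 37.8 and 23.7 FPKM and Col-0 had 12.7, 26.6 and 19.8 FPKM. The Col-0 log2 change of -0.63 in S+HS did not pass (limma adjusted p 0.067, SE 0.27). It passed without Col-0 S+HS replicate 2 (-0.87, adjusted p 0.023) and under median-of-ratios scaling (-0.71, adjusted p 0.047). In HL+HS the means were 28.4 ± 4.37 FPKM in the mutant and 29.3 ± 1.42 FPKM in Col-0 (SD, n = 3 each).

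P5CS2, the copy of the same enzyme known for housekeeping and for dividing tissue, passed the test in neither S nor S+HL. Its means were 81.2 ± 5.26 FPKM in mutant S and 76.6 ± 9.72 FPKM in mutant S+HL against 82.1 ± 6.84 FPKM in mutant Control (SD, n = 3 each). The Col-0 means were 81.7 ± 5.51 FPKM in S and 76.4 ± 7.91 FPKM in S+HL against 75.01 ± 5.91 FPKM in Control (SD, n = 3 each). These libraries overlapped with Control. In HS it fell, to 44.4, 28.9 and 28.4 FPKM in the mutant against 75.2, 82.4 and 88.8 FPKM in mutant Control. In Col-0 HS it had 36.2, 33.6 and 32.5 FPKM against 80.3, 68.6 and 76.1 FPKM in Col-0 Control. The HS libraries lay below Control without overlap. Log2 changes in HS were -1.28 in the mutant (limma adjusted p 1.1e-06, SE 0.14) and -1.11 in Col-0 (limma adjusted p 1.2e-07, SE 0.10).

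P5CS2 was also called lower in every combination with heat in both genotypes. Log2 changes in the mutant were -0.82 in S+HS, -0.63 in HL+HS and -0.47 in S+HL+HS. The same changes in Col-0 were -0.70 in S+HS, -0.30 in HL+HS and -0.41 in S+HL+HS (limma adjusted p of all 6 at most 0.031). The call in Col-0 HL+HS was lost under median-of-ratios scaling (-0.19, adjusted p 0.24) and in a fit of only the 2 groups (adjusted p 0.0599). It was also lost without Col-0 Control replicate 1 (-0.25, adjusted p 0.12), Control replicate 3 (-0.29, adjusted p 0.082) or HL+HS replicate 1 (-0.24, adjusted p 0.12). P5CS2 overlaps AT3G55605 by 32 bases and P5CS1 overlaps AT2G39795 by 91 bases, each on the other strand, and whether counting used strand is not given in the sources used here.

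P5CR, the gene for the last step of synthesis, stood higher in heat, where P5CS1 and P5CS2 stood lower. In HS it had 114, 168 and 189 FPKM in the mutant against 72.2, 67.2 and 75.5 FPKM in mutant Control. In Col-0 HS it had 136, 179 and 162 FPKM against 69.6, 74.7 and 74.8 FPKM in Col-0 Control. All HS libraries lay above all Control libraries. Log2 changes were 1.09 in the mutant (limma adjusted p 4.4e-05, SE 0.16) and 1.10 in Col-0 (limma adjusted p 2.2e-06, SE 0.13).

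The combinations with heat gave P5CR changes of 1.12 in S+HL+HS, 1.11 in S+HS and 0.63 in HL+HS in the mutant. P5CR changes in Col-0 were 1.16 in S+HL+HS, 0.99 in S+HS and 0.69 in HL+HS, and all 6 were called by limma (adjusted p at most 0.0052). In S+HL it rose by 0.83 in the mutant (limma adjusted p 0.00045, SE 0.16) and by 0.58 in Col-0 (limma adjusted p 0.0015, SE 0.13). Salt alone gave 0.44 in the mutant (limma adjusted p 0.0499, SE 0.16). In Col-0 it gave 0.32, which did not pass (limma adjusted p 0.095, SE 0.13) except in a fit of only the 2 groups (adjusted p 0.032). The mutant call was lost in all 6 fits with 1 library left out. Its log2 change was then 0.45, 0.40 and 0.48 without mutant Control replicates 1, 2 and 3, and 0.43, 0.41 and 0.48 without mutant S replicates 1, 2 and 3 (adjusted p 0.067 to 0.14). It was lost as well under median-of-ratios scaling (0.28, adjusted p 0.19), without a trend in the moderation (adjusted p 0.063) and without any filter (adjusted p 0.066).

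**Figure D2:**
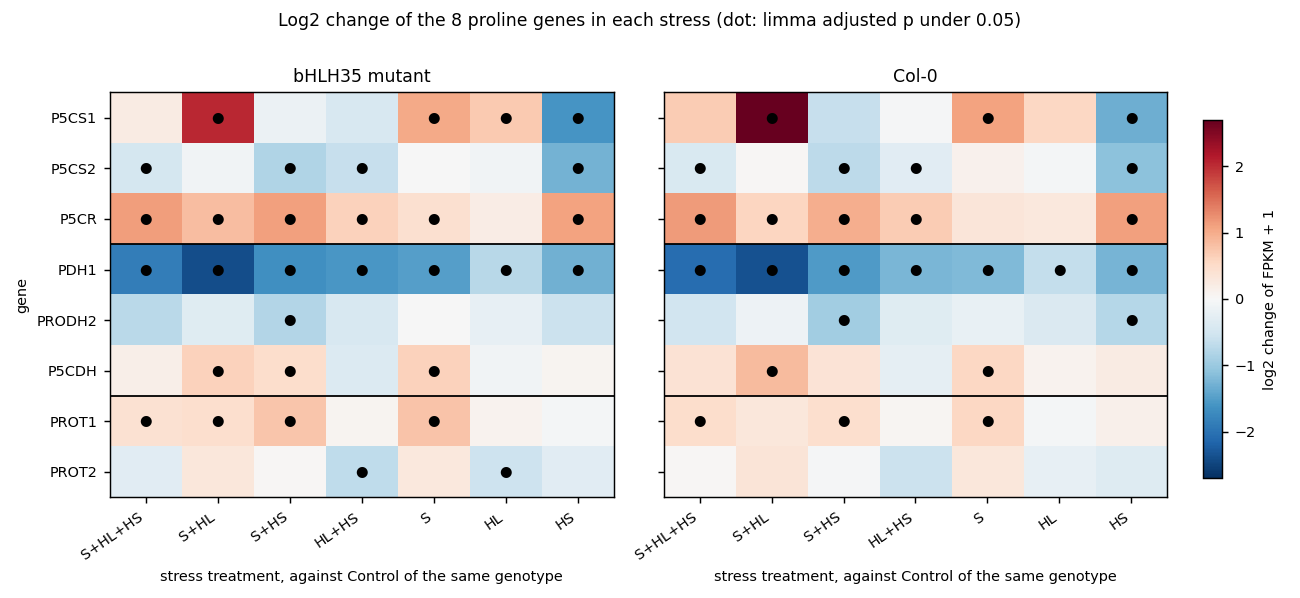
Log2 change of FPKM + 1 (colour) of the 8 genes (rows, in the order synthesis, breakdown, transport) in each stress against Control (columns), for the bHLH35 mutant on the left and Col-0 on the right, with a dot where the limma adjusted p was under 0.05. PDH1 has a dot in all 7 stresses of both genotypes, from -2.39 to -0.75 in the mutant and from -2.36 to -0.64 in Col-0.

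PDH1, the main proline dehydrogenase, was called in every stress of both genotypes, each time lower than in Control. In S+HL it had 39.98, 34.96 and 36.5 FPKM in the mutant against 161, 219 and 221 FPKM in mutant Control. In Col-0 S+HL it had 43.7, 37.003 and 32.5 FPKM against 217, 194 and 179 FPKM in Col-0 Control. The groups lay far apart. The mean was 18.5% of Control in the mutant, with a log2 change of -2.39 (limma adjusted p 6.3e-07, SE 0.25). It was 19.2% of Control in Col-0, with a log2 change of -2.36 (limma adjusted p 1.3e-08, SE 0.18).

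In salt alone PDH1 had 70.3, 65.5 and 73.3 FPKM in the mutant and 78.5, 82.5 and 95.5 FPKM in Col-0. In heat alone it had 106, 67.8 and 70.5 FPKM in the mutant and 97.97, 65.9 and 85.7 FPKM in Col-0. Each of these libraries lay below every Control library of its genotype. Log2 changes in S were -1.50 in the mutant (limma adjusted p 0.00021, SE 0.25) and -1.19 in Col-0 (limma adjusted p 0.00016, SE 0.18). In HS they were -1.30 in the mutant (limma adjusted p 0.00066, SE 0.25) and -1.25 in Col-0 (limma adjusted p 3.2e-05, SE 0.18).

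In the combinations with heat, log2 changes of PDH1 were -1.88 in S+HL+HS, -1.66 in S+HS and -1.58 in HL+HS in the mutant. In Col-0 they were -2.06 in S+HL+HS, -1.53 in S+HS and -1.24 in HL+HS. All 6 were called by limma (adjusted p at most 1.0e-04). High light alone gave the smallest of its 7 changes in each genotype, at 80.2, 134 and 150.2 FPKM in mutant HL and 124, 148 and 109 FPKM in Col-0 HL.

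The HL change of PDH1 was -0.75 in the mutant (limma adjusted p 0.047, SE 0.25) and -0.64 in Col-0 (limma adjusted p 0.0199, SE 0.18). In the mutant the call was lost without Control replicate 2 (-0.68, adjusted p 0.13) or 3 (-0.68, adjusted p 0.14), without HL replicate 1 (-0.48, adjusted p 0.197) or 2 (-0.85, adjusted p 0.067), and under 6 other alternatives (adjusted p 0.056 to 0.12). In Col-0 it was lost without Control replicate 1 (-0.57, adjusted p 0.084) or HL replicate 3 (-0.53, adjusted p 0.094).

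PRODH2, the second proline dehydrogenase gene, was low throughout, with 0.433 to 3.79 FPKM over the 48 libraries. Every one of these values was above the limit of 3 fragments in its library. In S+HS it had 1.06, 0.556 and 1.37 FPKM in the mutant against 3.09, 2.32 and 1.84 FPKM in mutant Control. In Col-0 S+HS it had 0.433, 1.12 and 1.12 FPKM against 3.395, 2.003 and 2.41 FPKM in Col-0 Control. The groups did not overlap. The log2 change was -0.78 in the mutant (limma adjusted p 0.036, SE 0.29) and -0.93 in Col-0 (limma adjusted p 0.0088, SE 0.27).

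These calls of PRODH2 rested on few libraries. The mutant call in S+HS was lost without Control replicate 1 (-0.64, adjusted p 0.13) or 2 (-0.79, adjusted p 0.069) and without S+HS replicate 1 (-0.82, adjusted p 0.061) or 2 (-0.61, adjusted p 0.15). The Col-0 call was lost without S+HS replicate 1 (-0.74, adjusted p 0.054). In HS the log2 change was -0.58 in the mutant, which did not pass (limma adjusted p 0.15, SE 0.29), and -0.78 in Col-0, which did (limma adjusted p 0.035, SE 0.27). The Col-0 call in HS was lost without Control replicate 1 (-0.63, adjusted p 0.15) or 3 (-0.81, adjusted p 0.065) and without HS replicate 2 (-0.66, adjusted p 0.13) or 3 (-0.83, adjusted p 0.054). In mutant S+HL+HS a log2 change of -0.73 missed the threshold (limma adjusted p 0.051, SE 0.29). It passed without mutant Control replicate 3 (-0.85, adjusted p 0.049) or S+HL+HS replicate 1 (-0.86, adjusted p 0.048) and under 5 other alternatives (adjusted p 0.036 to 0.049).

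P5CDH, which oxidises pyrroline-5-carboxylate in mitochondria, stood higher in S and S+HL, where PDH1 stood lower. In S+HL it had 37.03, 35.7 and 31.8 FPKM in the mutant against 18.97, 23.8 and 24.4 FPKM in mutant Control. In Col-0 S+HL it had 38.4, 41.6 and 40.3 FPKM against 22.8, 18.7 and 24.2 FPKM in Col-0 Control. The groups did not overlap. Log2 changes were 0.62 in the mutant (limma adjusted p 0.0032, SE 0.15) and 0.85 in Col-0 (limma adjusted p 0.00047, SE 0.17).

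In S the P5CDH change was 0.62 in the mutant (limma adjusted p 0.0053, SE 0.15) and 0.57 in Col-0 (limma adjusted p 0.022, SE 0.17). The Col-0 call was lost without Control replicate 2 (0.46, adjusted p 0.103), S replicate 1 (0.54, adjusted p 0.077) or S replicate 2 (0.54, adjusted p 0.079). In S+HS it was 0.48 in the mutant (limma adjusted p 0.016, SE 0.15), a call lost without mutant Control replicate 1 (0.37, adjusted p 0.0903) or S+HS replicate 1 (0.39, adjusted p 0.078). In Col-0 the change of 0.37 in S+HS did not pass (limma adjusted p 0.081, SE 0.17), nor did that of 0.39 in S+HL+HS (limma adjusted p 0.073, SE 0.17). In a fit of only the 2 groups both passed, S+HL+HS at adjusted p 0.029 and S+HS at adjusted p 0.046. In HL, HS and HL+HS no P5CDH change passed in either genotype.

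P5CDH overlaps SRO5, a gene of the SIMILAR TO RCD-ONE family on the other strand, by 905 bases, and reads in the overlap cannot be assigned without strand. SRO5 is named here for this overlap, outside the rule for named genes and after its values were seen. It averaged 10.6 ± 3.399 FPKM in S+HS, 5.74 ± 1.11 FPKM in S+HL and 1.897 ± 0.348 FPKM in S against 0.827 ± 0.194 FPKM in Control in the mutant (SD, n = 3 each). In Col-0 it averaged 12.3 ± 3.19 FPKM in S+HS, 5.97 ± 1.94 FPKM in S+HL and 2.13 ± 0.599 FPKM in S against 1.07 ± 0.114 FPKM in Control (SD, n = 3 each). In mutant S+HL+HS it averaged 9.61 ± 1.42 FPKM, and in Col-0 S+HL+HS 7.37 ± 2.69 FPKM. SRO5 also stood above Control without salt, where no P5CDH change passed, at 2.01 ± 0.0685 FPKM in HL, 2.35 ± 1.15 FPKM in HS and 3.75 ± 1.14 FPKM in HL+HS in the mutant. The Col-0 means were 3.01 ± 0.429 FPKM in HL, 2.34 ± 0.618 FPKM in HS and 3.13 ± 0.834 FPKM in HL+HS (SD, n = 3 each). The part of SRO5 reads in the P5CDH levels was not tested.

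PROT1, a proline carrier known from vascular tissue, stood higher in treatments with salt. In S it had 23.02, 23.6 and 20.01 FPKM in the mutant against 12.4, 14.8 and 11.03 FPKM in mutant Control. In Col-0 S it had 22.98, 17.8 and 18.7 FPKM against 13.4, 13.8 and 12.2 FPKM in Col-0 Control. No S library overlapped with Control. Log2 changes in S were 0.76 in the mutant (limma adjusted p 7.6e-05, SE 0.12) and 0.55 in Col-0 (limma adjusted p 0.0068, SE 0.14). The Col-0 call was lost without S replicate 1 (0.45, adjusted p 0.054).

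In the mutant, PROT1 was also called higher in S+HS (0.75, limma adjusted p 3.2e-05), S+HL (0.46, adjusted p 0.0042) and S+HL+HS (0.41, adjusted p 0.0073). In Col-0 it was called higher in S+HS (0.46, limma adjusted p 0.0089) and S+HL+HS (0.48, adjusted p 0.00801), while the change of 0.31 in S+HL did not pass (adjusted p 0.078). The S+HL+HS calls were lost without Control replicate 3 in the mutant (0.32, adjusted p 0.0503) and without S+HL+HS replicate 3 in Col-0 (0.38, adjusted p 0.056). In HL, HS and HL+HS none passed, at group means between 12.1 and 13.6 FPKM against 12.7 FPKM in Control in the mutant, and between 12.8 and 14.7 FPKM against 13.2 FPKM in Control in Col-0.

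PROT2, a carrier known from the root epidermis and cortex, was called in 2 mutant treatments and in none of Col-0. In mutant HL+HS it had 6.43, 6.63 and 5.23 FPKM against 9.02, 11.01 and 11.3 FPKM in mutant Control, a log2 change of -0.69 (limma adjusted p 0.0093, SE 0.19). In Col-0 HL+HS it had 6.59, 5.29 and 7.905 FPKM against 13.03, 7.95 and 10.4 FPKM in Col-0 Control, a log2 change of -0.58 that did not pass (limma adjusted p 0.101, SE 0.27). In both genotypes the HL+HS libraries lay below Control without overlap. The call in mutant HL, at -0.56 (limma adjusted p 0.0499, SE 0.19), was lost in all 6 fits with 1 library left out. Its log2 change was then -0.66, -0.52 and -0.51 without Control replicates 1, 2 and 3, and -0.61, -0.49 and -0.58 without HL replicates 1, 2 and 3 (adjusted p 0.056 to 0.17). It was lost under 5 other alternatives too (adjusted p 0.052 to 0.066). The highest PROT2 means were in S+HL, at 13.1 ± 1.15 FPKM in the mutant and 13.4 ± 1.83 FPKM in Col-0 (SD, n = 3 each), where no change passed.

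Synthesis and breakdown were set side by side by dividing the FPKM of P5CS1 by that of PDH1 in each library. This ratio does not depend on how a library was scaled, and it is given without a test. In S+HL it was 5.34, 3.998 and 3.83 in the mutant against 0.272, 0.168 and 0.1601 in mutant Control. In Col-0 S+HL it was 4.33, 6.46 and 5.16 against 0.151, 0.142 and 0.162 in Col-0 Control. S+HL was the one treatment in which P5CS1 stood above PDH1 in every library of both genotypes. In S the ratio was 1.27, 1.096 and 1.06 in the mutant and 0.849, 0.7897 and 0.645 in Col-0. In HS it was 0.131, 0.161 and 0.163 in the mutant and 0.0919, 0.144 and 0.197 in Col-0, which overlapped with Control. In S+HL+HS the ratios spread on both sides of 1, at 0.588, 1.12 and 0.902 in the mutant and 1.49, 1.14 and 0.669 in Col-0. Over the 8 group means of log2(FPKM + 1), which share their libraries and depth, P5CS1 and PDH1 had a correlation of r = -0.33 in the mutant and -0.46 in Col-0.

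**Figure D3:**
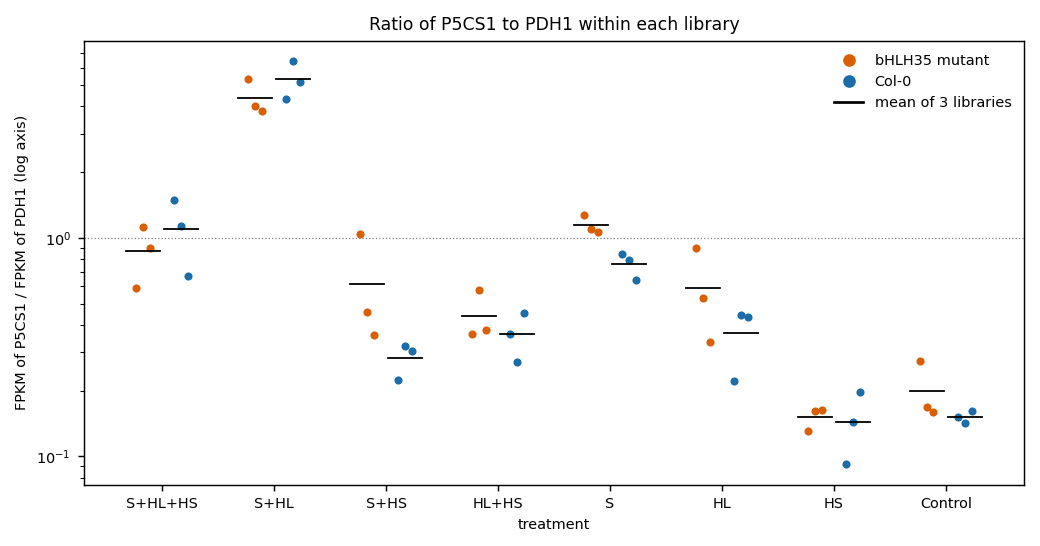
FPKM of P5CS1 divided by FPKM of PDH1 in each library (vertical log axis), by treatment, with bHLH35 mutant libraries left of Col-0 libraries and bars at the mean of 3 libraries. S+HL libraries lie between 3.83 and 6.46, and all others at or below 1.49.

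The design also shows each stress on top of another, in comparisons without Control. With salt added, the members called in the mutant were 6 in S+HL against HL (21.4%), 3 in S+HS against HS (23.8%) and 4 in S+HL+HS against HL+HS (24.8%), where the share in parentheses is that of all genes tested. In Col-0 they were 3 in S+HL against HL (13.8%), 1 in S+HS against HS (21.7%) and 4 in S+HL+HS against HL+HS (18.8%). With high light added, they were 2 in S+HL against S (11.5%), 3 in HL+HS against HS (20.3%) and 0 in S+HL+HS against S+HS (2.6%) in the mutant. In Col-0 they were 2 in S+HL against S (11.9%), 3 in HL+HS against HS (19.5%) and 1 in S+HL+HS against S+HS (2.74%). With heat added, they were 3 in S+HS against S (26.2%), 2 in HL+HS against HL (6.17%) and 3 in S+HL+HS against S+HL (12.5%) in the mutant. In Col-0 they were 4 in S+HS against S (31.4%), 1 in HL+HS against HL (8.06%) and 3 in S+HL+HS against S+HL (10.3%). Beside the limma count of 0 in mutant S+HL+HS against S+HS, 3 members stood at an unadjusted p under 0.05, as did 16.4% of all genes tested.

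P5CS1 was higher where high light was added. In S+HL its mean was 2.06 times that of S in the mutant, a log2 change of 1.01 (limma adjusted p 0.0057, SE 0.23). In Col-0 it was 3.09 times that of S, a log2 change of 1.60 (limma adjusted p 0.00047, SE 0.27). In HL+HS against HS the log2 change was 1.16 in the mutant (limma adjusted p 0.0019, SE 0.23) and 1.29 in Col-0 (limma adjusted p 0.0035, SE 0.27). In S+HL+HS against S+HS it was 0.37 in the mutant, which did not pass (limma adjusted p 0.45, SE 0.23), and 1.31 in Col-0, which did (limma adjusted p 0.0097, SE 0.27). That Col-0 call was lost without S+HS replicate 1 (1.04, adjusted p 0.072) or S+HL+HS replicate 1 (1.13, adjusted p 0.083).

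Where heat was added P5CS1 was lower. In S+HL+HS its mean was 28.1% of that of S+HL in the mutant, a log2 change of -1.82 (limma adjusted p 0.00027, SE 0.23). In Col-0 it was 24.8%, a log2 change of -2.002 (limma adjusted p 0.00014, SE 0.27). The S+HL+HS libraries lay below every S+HL library in both genotypes. In S+HS against S the log2 change was -1.18 in the mutant (limma adjusted p 0.00073, SE 0.23) and -1.72 in Col-0 (limma adjusted p 7.8e-05, SE 0.27). In HL+HS against HL it was -1.14 in the mutant (limma adjusted p 0.0058, SE 0.23) and -0.58 in Col-0, which did not pass (limma adjusted p 0.198, SE 0.27).

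Where salt was added to high light, P5CS1 rose by 1.33 in the mutant (limma adjusted p 0.00066, SE 0.23) and by 2.13 in Col-0 (limma adjusted p 4.3e-05, SE 0.27). Where salt was added to heat, it rose by 1.44 in the mutant (limma adjusted p 0.00017, SE 0.23), while 0.69 in Col-0 did not pass (limma adjusted p 0.079, SE 0.27). The Col-0 change passed without S+HS replicate 1 (0.95, adjusted p 0.024) or HS replicate 3 (0.95, adjusted p 0.028). In S+HL+HS against HL+HS it was 0.65 in the mutant (limma adjusted p 0.043, SE 0.23) and 0.71 in Col-0, which did not pass (limma adjusted p 0.075, SE 0.27) except in a fit of only the 2 groups (adjusted p 0.029). The mutant call was lost without HL+HS replicate 2 (0.64, adjusted p 0.089) or 3 (0.55, adjusted p 0.14), without S+HL+HS replicate 2 (0.41, adjusted p 0.23) or 3 (0.75, adjusted p 0.058), and under 3 other alternatives (adjusted p 0.051 to 0.18).

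P5CS2 was higher in HL+HS than in HS, by 0.65 in the mutant (limma adjusted p 0.0028, SE 0.14) and by 0.81 in Col-0 (limma adjusted p 3.8e-05, SE 0.10). The mutant call was lost in a fit of only the 2 groups (adjusted p 0.096). In S+HS against S its log2 change was -0.81 in the mutant (limma adjusted p 0.00019, SE 0.14) and -0.83 in Col-0 (limma adjusted p 4.4e-06, SE 0.10). P5CR was higher in S+HS than in S, by 0.67 in the mutant (limma adjusted p 0.0045, SE 0.16) and by 0.67 in Col-0 (limma adjusted p 0.00051, SE 0.13).

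Of the breakdown genes, PDH1 was lower in S+HL than in either single stress. S+HL against HL gave -1.63 in the mutant (limma adjusted p 0.00031, SE 0.25) and -1.72 in Col-0 (limma adjusted p 7.2e-06, SE 0.18). S+HL against S gave -0.89 in the mutant (limma adjusted p 0.027, SE 0.25) and -1.16 in Col-0 (limma adjusted p 0.00021, SE 0.18). The mutant call of S+HL against S was lost under median-of-ratios scaling (-0.85, adjusted p 0.064). It was also lost without mutant S replicate 1 (-0.88, adjusted p 0.077), 2 (-0.93, adjusted p 0.053) or 3 (-0.85, adjusted p 0.081) and without S+HL replicate 2 (-0.85, adjusted p 0.078) or 3 (-0.88, adjusted p 0.082). Where salt was added to heat, PDH1 was not called lower in either genotype. In S+HL+HS against HL+HS it was not called lower in the mutant, while in Col-0 it was (-0.82, limma adjusted p 0.0058). P5CDH was higher in S+HL than in HL, by 0.73 in the mutant (limma adjusted p 0.00297, SE 0.15) and by 0.76 in Col-0 (limma adjusted p 0.0048, SE 0.17). The Col-0 call was lost in a fit of only the 2 groups (adjusted p 0.055).

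Of the carriers, PROT1 in S+HS against HS changed by 0.81 in the mutant (limma adjusted p 6.6e-05, SE 0.12), while 0.32 in Col-0 did not pass (limma adjusted p 0.09996, SE 0.14). In S+HL against HL its change was 0.36 in the mutant (limma adjusted p 0.034, SE 0.12) and 0.36 in Col-0, which did not pass (limma adjusted p 0.084, SE 0.14). In S+HL+HS against HL+HS it was called in both genotypes, at 0.34 in the mutant (limma adjusted p 0.039, SE 0.12) and 0.43 in Col-0 (limma adjusted p 0.032, SE 0.14). The mutant call in S+HL against HL and both calls in S+HL+HS against HL+HS were lost in a fit of only the 2 groups and under median-of-ratios scaling. With that scaling they were 0.17 in mutant S+HL (adjusted p 0.25), 0.14 in mutant S+HL+HS (adjusted p 0.37) and 0.26 in Col-0 S+HL+HS (adjusted p 0.17). Each was also lost without single libraries. These were HL replicates 2 and 3 and S+HL replicates 1, 2 and 3 in mutant S+HL (0.31 to 0.37, adjusted p 0.053 to 0.11). They were HL+HS replicates 1 and 2 and S+HL+HS replicates 2 and 3 in mutant S+HL+HS (0.29 to 0.35, adjusted p 0.074 to 0.14). In Col-0 S+HL+HS they were HL+HS replicates 1, 2 and 3 and S+HL+HS replicates 1 and 3 (0.33 to 0.46, adjusted p 0.052 to 0.15). PROT2 in S+HL against HL changed by 0.87 in the mutant (limma adjusted p 0.0041, SE 0.19), while 0.58 in Col-0 did not pass (limma adjusted p 0.16, SE 0.27).

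**Figure D4:**
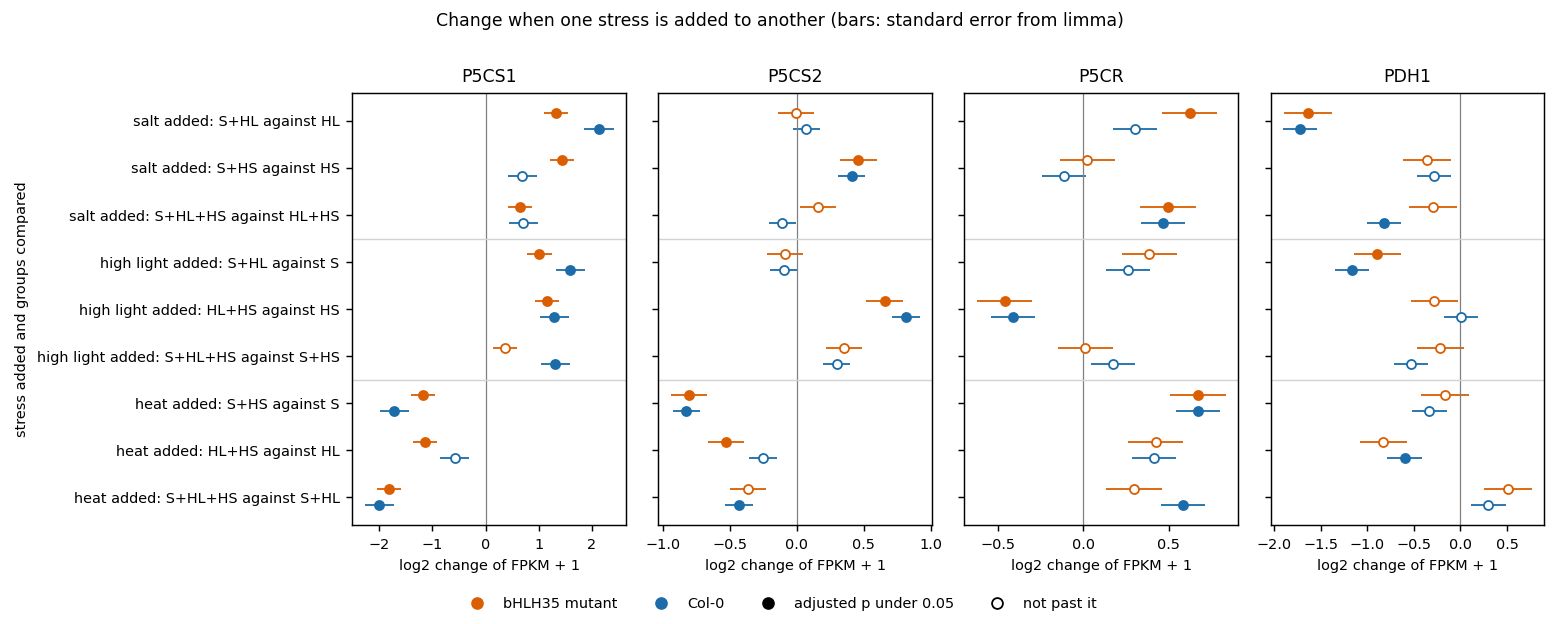
Log2 change of FPKM + 1 (horizontal axes) when salt, high light or heat was added to another treatment (rows), for P5CS1, P5CS2, P5CR and PDH1 (panels), with bHLH35 mutant points above Col-0 points, bars of 1 standard error and filled points where the limma adjusted p was under 0.05. P5CS1 lies above 0 in each row of added salt and added high light, and below 0 in each row of added heat.

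Each combination was then set against the sum of its single stresses on the log2 scale. In HL+HS, 1 member was called in the mutant (4.03% of all genes tested) and 2 in Col-0 (9.28%). P5CS2 stood 0.75 above the sum in the mutant (limma adjusted p 0.031, SE 0.19) and 0.86 above it in Col-0 (limma adjusted p 0.0012, SE 0.14). P5CR differed from the sum by -0.69 in Col-0 (limma adjusted p 0.022, SE 0.18). The P5CS2 value in Col-0 passed under every alternative run. The mutant value was lost in a fit of only the contrasted groups (adjusted p 0.13). It was also lost without mutant Control replicate 2 or 3, HL replicate 1 or 3, HS replicate 2 or 3, or HL+HS replicate 1 or 2, at 0.64 to 0.77 (adjusted p 0.054 to 0.098). The P5CR value was lost without Col-0 Control replicate 1 (-0.65, adjusted p 0.052), HS replicate 2 (-0.60, adjusted p 0.067) or 3 (-0.67, adjusted p 0.051), or HL+HS replicate 2 (-0.61, adjusted p 0.068).

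No member was called by limma against the sum in S+HL (0.111% of all genes in the mutant and 0.246% in Col-0), in S+HS (0.256% in the mutant and 0.231% in Col-0) or in S+HL+HS (3.05% in the mutant and 2.43% in Col-0). Members at an unadjusted limma p under 0.05 are given with the share of all genes tested at that p. In the mutant there were 2 in S+HL+HS (18.5%), 2 in S+HL (8.53%) and 2 in S+HS (14.6%). For Col-0 there were 3 in S+HL+HS (17.3%), 1 in S+HL (7.93%) and 2 in S+HS (16.1%). P5CS1 in S+HL stood 0.30 above the sum in the mutant (limma adjusted p 0.89, SE 0.32) and 1.04 above it in Col-0 (limma adjusted p 0.44, SE 0.39), and neither passed.

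The genotypes were compared in 1 fit over all 48 libraries. For the mutant response minus the Col-0 response to a stress, limma called 0 of 56 pairs of member and stress. At an unadjusted p under 0.05 there were 0 pairs as well, beside 2.94% (HS) to 5.65% (HL+HS) of all genes tested. Of all genes tested, 0.0234% were called in HL and 0.00468% in S+HL+HS, and 0.0% under the other 5 stresses. The differences of the members ran from -0.65 to 0.47, with standard errors of 0.17 to 0.41. The lowest was P5CS1 in S+HL at -0.65 (limma adjusted p 1.0, SE 0.37). A difference that misses the threshold does not show that the genotypes responded alike.

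For levels in the mutant minus those in Col-0 within a treatment, limma called 0 of 64 pairs of member and treatment. At an unadjusted p under 0.05 there were 2 pairs, beside 2.2% (S) to 11.1% (HL+HS) of all genes tested. Of all genes tested, 0.417% were called in HL, 0.206% in Control, 0.192% in S+HL, 0.136% in HL+HS, 0.0749% in HS, 0.0234% each in S and S+HL+HS and 0.0187% in S+HS. P5CS1 in S+HS differed by 0.84 (SE 0.26, unadjusted limma p 0.00298, adjusted p 0.997), with overlap between the groups. PROT1 in HS was the other. Genotype and deposited table coincide, so these level differences also compare the tables.

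A list of 25 linked genes covered the supply of proline precursors, other carriers and described regulators of PDH1 or P5CS1. Of them, 22 passed the filter in each genotype (BAC2, GDH3 and MYB2 did not). Of the 22, the limma calls in the mutant, with the share called of all genes tested in parentheses, were 2 higher and 3 lower in S (26.6%), 6 higher and 7 lower in S+HL (38%), 5 higher and 7 lower in S+HS (44.4%), 7 higher and 7 lower in S+HL+HS (44.3%), 6 higher and 4 lower in HL (17.4%), 6 higher and 6 lower in HL+HS (35.4%) and 3 higher and 9 lower in HS (28.9%). Those in Col-0 were 2 higher and 3 lower in S (18.7%), 7 higher and 6 lower in S+HL (36%), 6 higher and 9 lower in S+HS (44.9%), 6 higher and 6 lower in S+HL+HS (39.9%), 7 higher and 4 lower in HL (17.7%), 6 higher and 5 lower in HL+HS (31.3%) and 3 higher and 6 lower in HS (30.8%). Their median log2 change lay between -0.29 and 0.16 over the mutant stresses and between -0.21 and 0.26 over the Col-0 stresses, beside the medians of all genes given above.

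Of the precursor genes, OAT, the mitochondrial ornithine aminotransferase, rose in the 3 combinations with salt in both genotypes. Its log2 changes were 0.76 in S+HL+HS, 0.77 in S+HL and 0.74 in S+HS in the mutant, and 0.68 in S+HL+HS, 0.63 in S+HL and 0.77 in S+HS in Col-0 (limma adjusted p at most 0.0041). In HL+HS its change was 0.42 in the mutant (limma adjusted p 0.017, SE 0.13), lost without Control replicate 1 or HL+HS replicate 1 (adjusted p up to 0.069), and 0.30 in Col-0, which did not pass (limma adjusted p 0.17, SE 0.16). ARGAH2, an arginase, averaged 131 ± 17.98 FPKM in S+HL against 65.3 ± 9.33 FPKM in Control in the mutant, a log2 change of 0.99 (limma adjusted p 3.4e-05, SE 0.15). In Col-0 it averaged 147 ± 23.9 FPKM in S+HL against 66.3 ± 8.61 FPKM in Control (SD, n = 3 each), a log2 change of 1.13 (limma adjusted p 0.00014, SE 0.20). GDH1, a subunit of glutamate dehydrogenase, was called lower in every stress but S in both genotypes (limma adjusted p at most 0.00077). Its lowest value was in S+HL+HS, at -1.95 in the mutant and -2.05 in Col-0. The calls of OAT in the combinations with salt and those given of ARGAH2 and GDH1 passed under every alternative run.

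Of the other carriers, AAP1, an importer of neutral amino acids, averaged 102 ± 8.999 FPKM in S+HL against 47.7 ± 4.802 FPKM in Control in the mutant, a log2 change of 1.09 (limma adjusted p 7.6e-08, SE 0.10). In Col-0 it averaged 107 ± 13.6 FPKM in S+HL against 46.3 ± 4.18 FPKM in Control (SD, n = 3 each), a log2 change of 1.18 (limma adjusted p 3.5e-07, SE 0.12). In HS the AAP1 change was -0.83 in the mutant (limma adjusted p 3.3e-06) and -0.65 in Col-0 (limma adjusted p 0.00035). LHT1, a carrier of lysine, histidine and other amino acids, changed in HS by -2.11 in the mutant (limma adjusted p 3.3e-06) and by -2.45 in Col-0 (limma adjusted p 1.7e-05). In HL+HS its change was -1.63 in the mutant (limma adjusted p 5.6e-05, SE 0.25) and -1.78 in Col-0 (limma adjusted p 0.000604, SE 0.34).

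Of the regulators, bZIP11, a basic leucine zipper factor of the S1 group known to act on PDH1 through ACTCAT elements, was called higher in all 7 stresses of both genotypes. It averaged 65.5 ± 2.01 FPKM in S+HL against 13.9 ± 1.52 FPKM in Control in the mutant, a log2 change of 2.17 (limma adjusted p 2.4e-07, SE 0.21). In Col-0 it averaged 66.7 ± 11.3 FPKM in S+HL against 13.5 ± 1.78 FPKM in Control (SD, n = 3 each), a log2 change of 2.21 (limma adjusted p 3.2e-09, SE 0.15). Its mutant call in HL, at 0.78, was lost without HL replicate 1 or Control replicate 2 (adjusted p up to 0.065). Its mutant call in HL+HS, at 0.62, was lost without Control replicate 2 or 3 or HL+HS replicate 2 or 3 (adjusted p up to 0.14).

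bZIP63, a C-group partner of the S1 factors, was called lower in all 4 treatments with salt and in HL in both genotypes. It averaged 15.9 ± 1.44 FPKM in S+HL against 91.8 ± 13.7 FPKM in Control in the mutant, a log2 change of -2.45 (limma adjusted p 2.9e-07, SE 0.24). In Col-0 it averaged 14.4 ± 1.67 FPKM in S+HL against 83.1 ± 7.42 FPKM in Control (SD, n = 3 each), a log2 change of -2.45 (limma adjusted p 4.8e-07, SE 0.26). In HL its log2 change was -0.81 in the mutant (limma adjusted p 0.027, SE 0.24) and -0.84 in Col-0 (limma adjusted p 0.027, SE 0.26). Both HL calls were lost without Control replicate 1 or 2 or HL replicate 1 of their genotype and in a fit of only the 2 groups, and the mutant call also under median-of-ratios scaling (adjusted p up to 0.13 in the mutant and 0.16 in Col-0). HY5, a light-signalling bZIP factor described at the P5CS1 promoter, was called higher in all 4 treatments with high light in both genotypes, under every alternative run. In HL it rose by 1.29 in the mutant (limma adjusted p 0.00026, SE 0.21) and by 1.46 in Col-0 (limma adjusted p 7.5e-05, SE 0.21). In HS HY5 did not pass, at 15.1 ± 6.22 FPKM against 17.9 ± 2.32 FPKM in Control in the mutant, and 17.4 ± 5.57 FPKM against 17.6 ± 4.99 FPKM in Control in Col-0 (SD, n = 3 each). Of the 12 regulators tested, 3 were called higher and 5 lower in mutant S+HL, and 4 higher and 3 lower in Col-0 S+HL. Those lower included PHR1 (-0.73 in the mutant and -0.77 in Col-0) and bZIP2 of the S1 group (-0.48 in the mutant and -0.55 in Col-0). These 4 calls (limma adjusted p at most 0.0079) held under every alternative run.

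**Figure D5:**
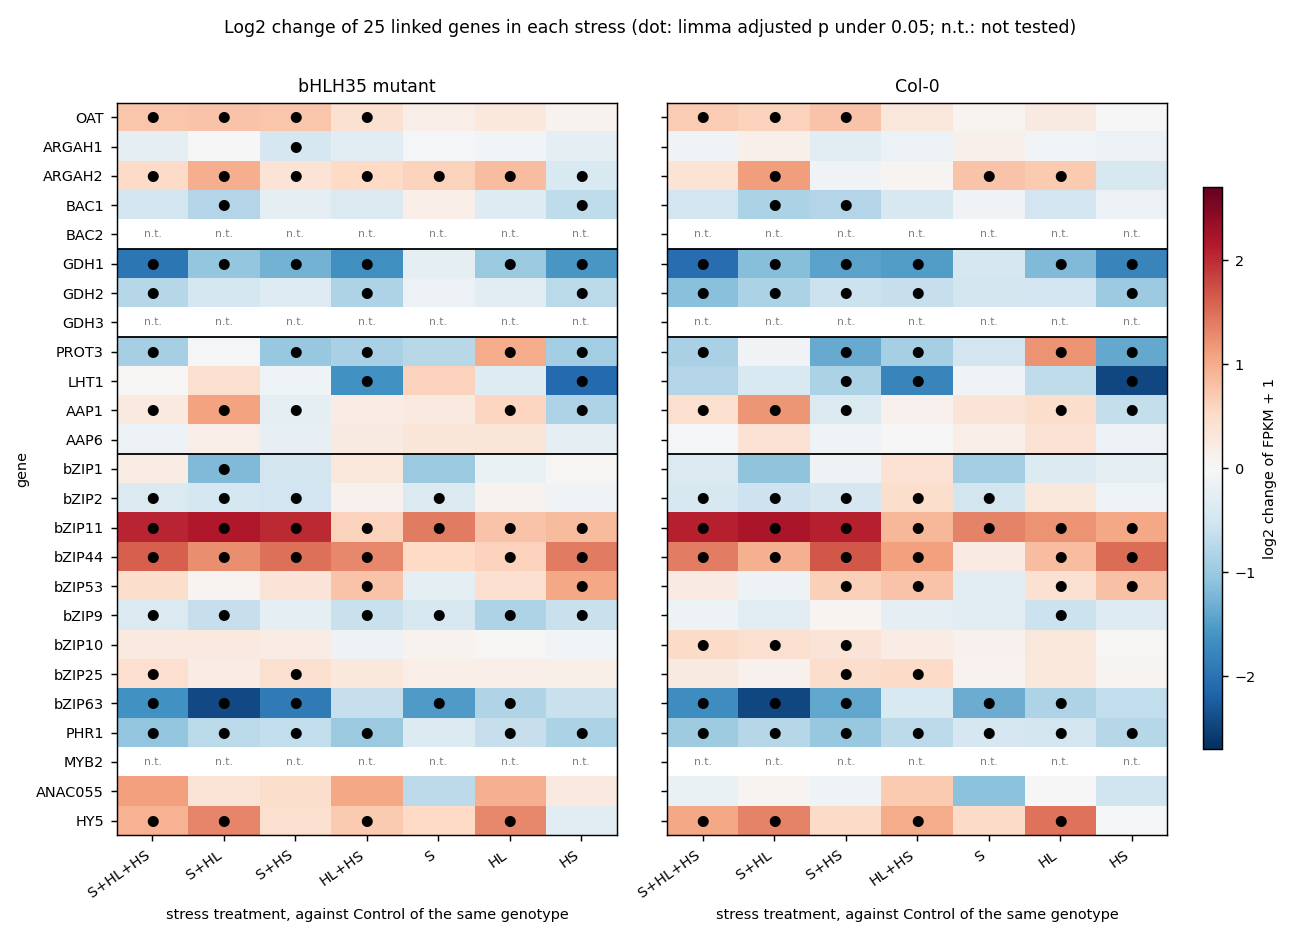
Log2 change of FPKM + 1 (colour) of the 25 linked genes (rows, grouped by role) in each stress against Control (columns), for the bHLH35 mutant on the left and Col-0 on the right, with a dot where the limma adjusted p was under 0.05. bZIP11 has a dot in all 7 columns of both panels, and bZIP63 stands at -2.45 in mutant S+HL and -2.45 in Col-0 S+HL.

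Likeness of pattern was measured by the correlation r over the 8 Col-0 group means of log2(FPKM + 1), among 14144 genes with a mean FPKM of at least 5. The gene most like P5CS1 was CSLG3, a cellulose synthase-like gene, at r = 0.97 in the mutant and 0.99 in Col-0. AT5G58160 (r = 0.91 in the mutant and 0.98 in Col-0), AAP1 (r = 0.92 in the mutant and 0.97 in Col-0), ACBP2, an acyl-CoA binding protein (r = 0.89 in the mutant and 0.97 in Col-0), and AT3G06410 (r = 0.93 in the mutant and 0.97 in Col-0) followed. For PDH1 the 5 most like were AT3G54880 (r = 0.96 in the mutant and 0.98 in Col-0), PYL6, an abscisic acid receptor (r = 0.87 in the mutant and 0.97 in Col-0), AT1G65845 (r = 0.88 in the mutant and 0.97 in Col-0), KCS12, a 3-ketoacyl-CoA synthase (r = 0.86 in the mutant and 0.96 in Col-0), and AT1G15125 (r = 0.95 in the mutant and 0.96 in Col-0). Ranked by r in the mutant, CSLG3 stood at 12 for P5CS1, and AT3G54880 at 2 and AT1G15125 at 7 for PDH1. The other genes named stood between 94 and 244. The 8 points of a genotype share libraries and depth, and 2 of the 5 genes were named again for each of P5CS1 and PDH1 under median-of-ratios scaling.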

How the data were processed

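The deposited tables hold FPKM per gene for 24 libraries of each genotype, made by the authors from reads that, per the submitters' processing notes, went through FastQC 0.11.9, Trim Galore 0.6.4 and HISAT2 2.2.1 with the build TAIR10. The tool that computed FPKM, its handling of shared reads and its use of strand are not given in the sources used here. The steps of low values gave whole fragments for 91.2% to 95.9% of values per library within 0.1 of a fragment, which set the depths of 19.3 to 43.1 M fragments. Floors of 3 fragments cover counting error only.

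Libraries were grouped by the labels' genotype and treatment. Genes were kept where 3 or more libraries had an FPKM of 1 or more (20675 in the mutant fit, 20744 in the Col-0 fit and 21359 in the joint fit). Values were taken as log2(FPKM + 1), with a pseudocount of 1, and fitted with limma 3.58.1 in R 4.3.3 over all 8 treatments of a genotype, with trended moderation and 16 residual degrees of freedom. The fit of HS against Control was also run on simulated data with independent noise, and its outcome is not given here. That run does not check the other comparisons or the scaling of libraries. Alternatives were a pseudocount of 0.1, no filter, a mean FPKM of at least 5, a common sum, median-of-ratios scaling, no trend, only the contrasted groups, a replicate block and leaving out each library. Two-sided p-values were adjusted by Benjamini-Hochberg over all genes of a fit.

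The 8 members, the 25 linked genes and the marker lists were chosen with earlier results of these data known. Genes named beyond them were the 5 whose Col-0 group means correlated best with P5CS1 and the 5 that did so with PDH1. Also named were AT2G39795, AT3G55605 and SRO5, which overlap members. Promoter and coding sequence came from RefSeq TAIR10.1, in which all 8 members were matched. Identity of paralogs was computed on coding sequence in place of proteins.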

Additional observations from a re-analysis of the deposited data

Results flagged for a closer look

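In HL+HS, 3 member values met a test of the difference between the effect of one stress with and without the other, which is the combination minus the sum of its single stresses. P5CS2 stood 0.75 above the sum in the mutant and 0.86 above it in Col-0 on the log2 scale. P5CR differed from the sum by -0.69 in Col-0. Of these 3, the P5CS2 value in Col-0 passed under every alternative run, and the other 2 lost their limma call without single libraries named above.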

How the results depend on the processing

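No member value that was called against Control changed its sign under any alternative run. Of the calls against Control, 24 of 31 in the mutant and 19 of 26 in Col-0 held under every alternative, and of those with one stress added to another, 13 of 26 in the mutant and 12 of 22 in Col-0. Under median-of-ratios scaling the mutant count with one stress added fell to 17, and the cause was not tested. Against the sum of single stresses, the mutant count of 1 became 0 in a fit of only the contrasted groups, which uses fewer libraries, and 0 to 6 with 1 library left out, where 6 was without HS replicate 1. The Col-0 count of 2 became 1 to 2, where 1 was without Control replicate 1, HS replicate 2 or 3, or HL+HS replicate 2. Of the 5 genes most like P5CS1, and of those most like PDH1, 2 were named again under median-of-ratios scaling.

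Counts over all genes called against Control moved by more than 1.5 times in 6 fits. Such moves in the other comparisons are not given here. In a fit of only the contrasted groups, they were 2353 against 3596 in mutant HL, 3557 against 5974 in mutant HS and 1603 against 3672 in Col-0 HL. They were 2242 without mutant HL replicate 2, and, against 3889 in Col-0 S, 2333 without S replicate 1 and 2411 without S replicate 2. Median-of-ratios scaling moved the median log2 change of all genes by more than 0.1 in mutant S (-0.01 against 0.13), HL+HS (0.01 against -0.15), S+HL (0.01 against 0.11) and S+HS (0.01 against 0.14) and in Col-0 S (-0.01 against 0.10).

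Samples with the same replicate number showed little shared deviation, with a correlation over 0.1 in 15 of 84 pairs in the mutant and 6 of 84 in Col-0. The median correlation was 0.014 for the same number and -0.0067 for other numbers in the mutant. In Col-0 it was 0.0028 for the same number and 0.0054 for other numbers. A low correlation cannot exclude that the numbers pair the libraries. Each library correlated best with its own number in 10 of 24 cases in the mutant and 8 of 24 in Col-0. With the replicate block, the calls against Control were 30 in the mutant and 26 in Col-0, those with one stress added 24 in the mutant and 21 in Col-0, and those against the sum 1 in the mutant and 2 in Col-0. Between genotypes the block gave 0 calls. With 3 libraries a group, the standard errors of 0.10 to 0.29 in the comparisons with Control limit what could be called.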
